A study of Mus musculus with 415 samples.

Results

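Chromatin accessibility was examined at the genes of 4 basement membrane proteins, Lama1, Col4a1, Col4a2 and Sparc, in single mouse cells differentiating under retinoic acid. The members are the rows of the deposited region table that overlap 3 fixed windows on mouse build mm9: chr17:68030000-68190000 for Lama1, chr8:11180000-11460000 for Col4a1 and Col4a2 together, and chr11:55190000-55260000 for Sparc. The rule uses position only, but the genes were picked with earlier results of these data known. In all, 8 of the 23180 regions qualified: 3 at Lama1, 3 at Col4a1-Col4a2 and 2 at Sparc. R1 mouse embryonic stem cells had been grown as hanging-drop embryoid bodies (48 hours), and retinoic acid followed over 4 days; the labels give its concentration as 0.5 mM. Each sample is 1 cell, captured on a Fluidigm C1 device and profiled by ATAC-seq, which uses the Tn5 transposase to tag open DNA. All cells carry the same treatment and day, and no untreated group, separate culture or chip is labelled. The series is therefore 1 sample in the statistical sense, so no test was made over cells. Intervals are exact (Clopper-Pearson) 95% intervals that cover only the counting of cells.

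A basement membrane is the thin sheet of extracellular matrix on which epithelia rest. Laminin heterotrimers and a network of type IV collagen form its layers, and nidogen and perlecan join them. In the early mouse embryo these proteins are made in large amounts by the extraembryonic endoderm. Its parietal cells lay down Reichert's membrane, and embryonal carcinoma cells that retinoic acid turns into endoderm-like cells are a textbook source of laminin and type IV collagen. Lama1 encodes the laminin alpha chain of the earliest embryonic laminin. Col4a1 and Col4a2 encode the chains of the most widespread type IV collagen. They lie head to head and are transcribed away from a shared promoter. Sparc encodes a secreted, collagen-binding glycoprotein that is abundant in parietal endoderm.

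The promoters of the collagen pair and of Sparc differ in base composition. The sequences shown are from RefSeq on build GRCm38.p6, which is not the build of the regions, so they were not placed on the regions. The promoter table held 3 of the 4 genes, with 300 bases for each, of which 250 precede the annotated start. The entries of Col4a1 and Col4a2 share 78 bases. The annotated first bases of the pair overlap, so the stretch from one start to the other lies just downstream of both. It is the first sequence below, shown because it is common to the pair (chr8:11312805-11312826, plus strand, GRCm38.p6). The second is the 250 bases before the start of Sparc, shown for contrast (chr11:55420081-55420330, minus strand, GRCm38.p6). Capitals mark CG dinucleotides.
Col4a1-Col4a2: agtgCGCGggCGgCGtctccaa
Sparc: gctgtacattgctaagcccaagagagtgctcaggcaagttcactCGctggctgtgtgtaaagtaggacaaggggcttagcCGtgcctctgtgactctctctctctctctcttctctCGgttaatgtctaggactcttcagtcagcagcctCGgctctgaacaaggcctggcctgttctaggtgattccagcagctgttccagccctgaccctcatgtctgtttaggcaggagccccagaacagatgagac
The stretch of 22 bases from one collagen start to the other holds 4 CG dinucleotides, as many as the 250 bases before Sparc. Over the whole entries, Col4a1 has 37 and Col4a2 33 CG dinucleotides, against a median of 7 over the 32851 promoters of the table, and Sparc has 4. The GC content is 74% for Col4a1, 73.7% for Col4a2 and 55.3% for Sparc, with a median of 52.7%. The letters AGATAA, a form of the site that GATA factors recognise, were searched on both strands and occur in none of the 3 entries and in 11.2% of all promoters.

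Open means a deposited signal above 0 for that region and cell. The median region of the table was open in 14.5% of cells (quartiles 9.88% and 23.6%), and every region was open in at least 31 cells. The number of open regions per cell ran from 756 to 12267, with a median of 3928, so depth differed widely between cells. Regions are lettered below by increasing coordinate within their window. Which of them is a promoter, exon or intron was not determined, since the gene annotation used here is on another build.

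Most of the 8 regions were open in few cells, and 2 were open more widely than the median region. The widest of them, Lama1 B (chr17:68046274-68048108, 1834 bp), was open in 35.9% of cells (31.3% to 40.7%). This was a higher share than in 91.1% of all regions. Its neighbour Lama1 A (chr17:68034762-68035254) lies 11.02 kb away on the side of lower coordinates and was open in 50 cells, 12.05% (9.08% to 15.6%). Lama1 C (chr17:68051166-68051606) lies 3.058 kb beyond B and was open in 54 cells, 13.0% (9.93% to 16.6%). The interval of B does not meet those of A and C, while A and C cannot be ordered. B is wider than 97.9% of all regions, while A and C are 492 and 440 bp wide, and shares were not scaled by width.

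At the collagen pair, Col4a A (chr8:11308494-11309369, 875 bp) was open in 94 cells, 22.7% (18.7% to 26.99%). Col4a B (chr8:11312623-11312893), 3.254 kb further, was open in 44 cells, 10.6% (7.81% to 13.97%). Col4a C (chr8:11419429-11419909) was open in 36 cells, 8.67% (6.15% to 11.8%). It lies 106.536 kb beyond B, and no region of the table falls between them. A stood above B and C, whose intervals overlap and which are narrower, at 270 and 480 bp.

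Sparc had the sparsest window. Sparc A (chr11:55199941-55200255) was open in 32 cells, 7.71% (5.33% to 10.7%), which is 1 cell above the lowest number in the table. Sparc B (chr11:55241737-55242392), 41.482 kb further, was open in 53 cells, 12.8% (9.71% to 16.4%). The intervals of the pair overlap. The median of the 8 shares was 12.4% and the median width 486 bp, against 762 bp over all regions.

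**Figure D1:**
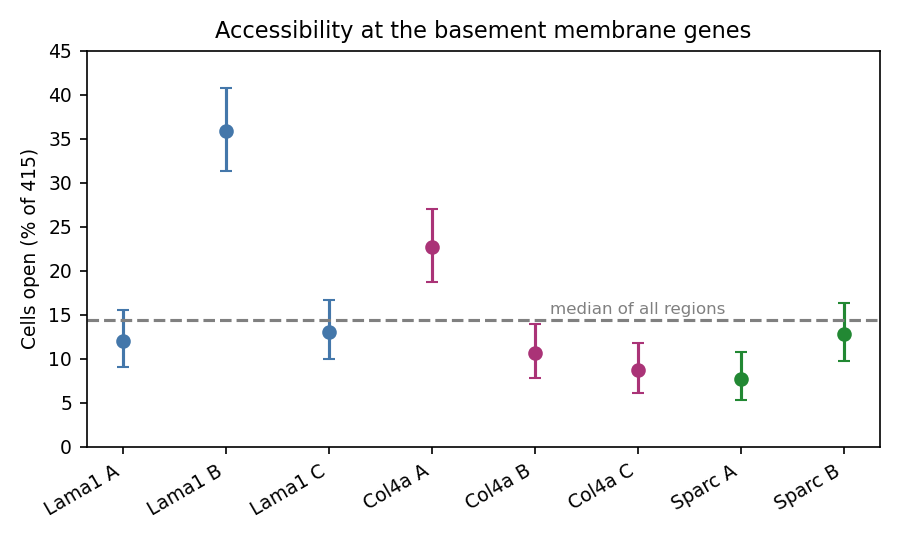
Percent of all cells in which each of the 8 regions was open (points), with exact 95% intervals (bars); the dashed line is the median of all 23180 regions, 14.5%. Lama1 B at 35.9% and Col4a A at 22.7% lie above the line with their whole intervals, and the other 6 points lie below it.

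Signal in open cells was mostly that of a single sequenced fragment, taken as the length of 1 read pair. The median open cell held 1 fragment at Lama1 A, Lama1 B, Col4a A and Sparc A, and 0.605 at Col4a B, the narrowest region at 270 bp. More than 1 fragment was seen in 40.3% of the cells open at Lama1 B and 36.2% of those open at Col4a A, but in 12.5% to 16.98% of those open at the other 6 regions. Over all open values of the table it was 29.5%. The highest single value was 6.51 fragments, at Lama1 B.

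Any region of the Lama1 window was open in 47.7% of cells (42.8% to 52.6%), any of the Col4a1-Col4a2 window in 34.2% (29.66% to 39.002%), and any of the Sparc window in 18.6% (14.9% to 22.6%). These shares order the windows without overlap of the intervals. The windows hold different numbers and widths of regions, so the order is not one of activity of the genes.

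Of the 8 regions, 5 were open more often in 1 group of cells than in the others, and 3 were not called different there. To find groups without using the member regions, cells were clustered on the 18664 regions of the autosomes other than 8, 11 and 17, so that none of the 3 windows took part. Of the cells with at least 1000 fragments, which left out 1 cell, 50% fell in cluster 1, 26.3% in cluster 2 and 23.7% (98 cells) in cluster 3, with medians of 3308, 3824 and 5051.5 open regions. Shares were therefore also divided by the share expected from each cell's depth. The ratio of these quotients, a cluster over all other cells, is the depth-scaled ratio. A ratio of 2 or more was called higher and 0.5 or less lower. In cluster 2, 5 of the 8 member regions were higher and 0 lower, where 9.46% of the 4017 regions of chromosomes 8, 11 and 17 were called higher and 19.9% lower. The median ratio was 2.74 for the members and 0.940 for those 4017 regions.

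Lama1 A showed the sharpest difference. It was open in 39 cells of cluster 2, 35.8% (26.8% to 45.5%), in 6 cells of cluster 1, 2.90% (1.07% to 6.20%), and in 5 cells of cluster 3, 5.10% (1.68% to 11.5%). Cluster 2 thus held 78% of the cells open at this region, and its interval lies far above those of the other clusters. The depth-scaled ratio was 10.3 (counting interval 5.17 to 22.3), above 98.9% of the regions on the 3 chromosomes.

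The other regions of Lama1 did not share this contrast. Lama1 B was open in 43.1% of cluster 2 (33.7% to 52.95%), 50% of cluster 3 (39.7% to 60.3%) and 25.6% of cluster 1 (19.8% to 32.1%). Its depth-scaled ratio was 1.29 in cluster 2 (0.895 to 1.84), 1.17 in cluster 3 (0.817 to 1.67) and 0.695 in cluster 1 (0.487 to 0.981). Lama1 C was open in 15.6%, 20.4% and 8.21% of clusters 2, 3 and 1, with a ratio of 1.33 in cluster 2 (0.703 to 2.43). The intervals of both ratios in cluster 2 include 1. In the Lama1 window, a region 11.02 kb from the widely open B thus had most of its open cells in cluster 2, while B was open across the clusters.

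All 3 regions of the collagen pair were called higher in cluster 2. Col4a A was open in 54 cells of cluster 2, 49.5% (39.8% to 59.3%), against 40 other cells, 13.1% (9.54% to 17.4%), a depth-scaled ratio of 3.86 (2.52 to 5.96). In cluster 3 it was open in 25.5% of cells (17.2% to 35.3%) and in cluster 1 in 7.25% (4.11% to 11.7%). Col4a B was open in 17.4% of cluster 2 and 8.20% of other cells, a ratio of 2.21 (1.15 to 4.18). Col4a C was open in 17.4% and 5.57%, a ratio of 3.26 (1.60 to 6.68). Col4a B and C were each open in 19 cells of cluster 2, so their ratios are loosely fixed.

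The 2 regions of Sparc behaved differently from each other. Sparc B was open in 29 cells of cluster 2, 26.6% (18.6% to 35.9%), against 24 cells outside it, 7.87% (5.11% to 11.5%). Its ratio was 3.50 (1.97 to 6.29). Sparc A was open in 8.26% of cluster 2 and 7.54% of other cells, a ratio of 1.14 (0.465 to 2.56). Sparc A was open in only 9 cells of cluster 2, and its interval reaches past the ratio of 2 that counts as higher.

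The other clusters had lower accessibility at some of these regions. Each ratio is against all other cells, which include cluster 2, so these calls are not separate from those in cluster 2. In cluster 1, Lama1 A (0.179, interval 0.0622 to 0.421) and Col4a A (0.245, 0.131 to 0.428) were called lower, 2 of 8 members where 9.11% of the regions on the 3 chromosomes were. In cluster 3, Lama1 A (0.246, 0.0763 to 0.619), Col4a C (0.1995, 0.0391 to 0.636) and Sparc B (0.395, 0.161 to 0.847) were called lower, 3 of 8 where 8.86% of the regions were. No member was called higher in cluster 1 or 3, where 7.52% and 6.85% of the regions were. Col4a A in cluster 3 had a ratio of 0.830 (0.503 to 1.33).

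**Figure D2:**
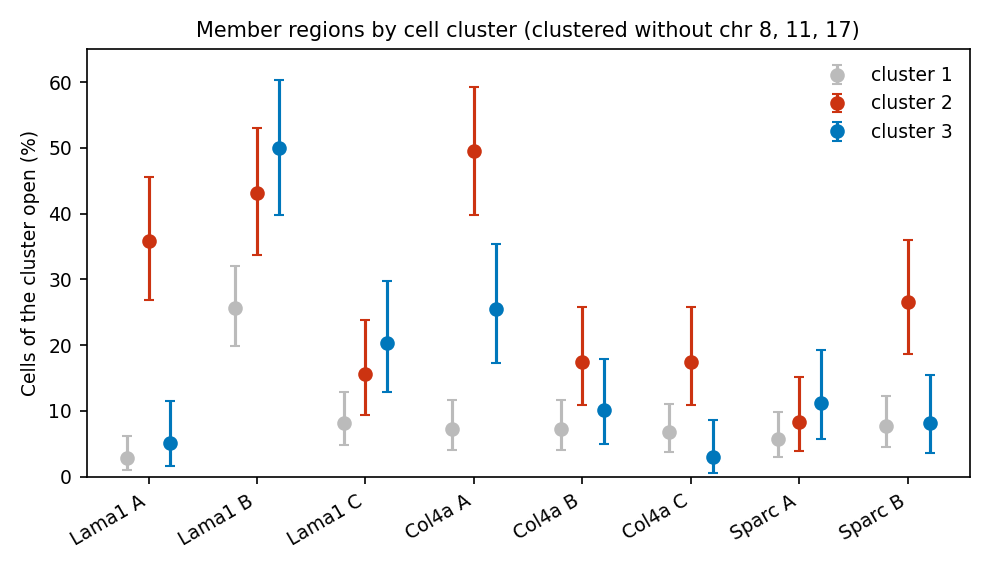
Percent of cells open at each region in clusters 1, 2 and 3 (50%, 26.3% and 23.7% of clustered cells), with exact 95% intervals; the clusters were made without chromosomes 8, 11 and 17. Cluster 2 reached 35.8% at Lama1 A, 49.5% at Col4a A and 26.6% at Sparc B, above both other clusters, while the intervals of all 3 clusters overlapped at Sparc A.

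With 5 of the 8 regions called higher there, cells of cluster 2 had more of the 8 open at a time, which is not a separate result. At least 3 were open in 40 of its cells, 36.7% (27.7% to 46.5%), where depth alone predicts 12.5%. In cluster 1 this was 10 cells, 4.83% (2.34% to 8.70%), with 11.1% predicted, and in cluster 3 17 cells, 17.3% (10.4% to 26.3%), with 22.7% predicted. At least 1 of the 8 was open in 90.8% of cluster 2, 49.3% of cluster 1 and 70.4% of cluster 3. The most complete cell had 7 of the 8 open.

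The contrast was also read within sets of the numbers in the cell titles, whose meaning the labels do not give. Cells were divided into 4 consecutive sets of title numbers, and cluster 2 made up 35.6%, 38.8%, 15.4% and 15.5% of the clustered cells of these sets. The region with the highest ratio of each window, which was chosen on the same cells, is given first. At Lama1 A the open share of cluster 2 was 45.9%, 30%, 31.2% and 31.2% in the 4 sets, against 1.49%, 3.17%, 5.68% and 3.45% for the other cells. At Col4a A it was 51.4%, 50%, 37.5% and 56.2%, against 7.46%, 20.6%, 15.9% and 9.20%. At Sparc B it was 35.1%, 17.5%, 31.2% and 25%, against 4.48%, 7.94%, 7.95% and 10.3%. In each set and at each of these 3 regions, cluster 2 was above the other cells, although the latter 2 sets held only 16 cells of cluster 2 each. Of the other 5 regions, Col4a B and Col4a C had the higher share in cluster 2 in 4 of 4 sets, Lama1 B and Lama1 C in 3 of 4 and Sparc A in 2 of 4. The sets that went the other way were the second for Lama1 B (35% against 39.7%), the fourth for Lama1 C (0% against 12.6%), and the first (0% against 8.96%) and the fourth (6.25% against 10.3%) for Sparc A. At Sparc B the depth-scaled ratio within a set ran from 2.25 (0.506 to 8.06) to 7.89 (2.17 to 43.2), and its interval excluded 1 in the first set only. At Col4a A the interval excluded 1 in 3 of 4 sets, and the third set had a ratio of 2.13 (0.670 to 5.90). At Lama1 A it excluded 1 in every set, with ratios of 30.99, 11.2, 5.02 and 8.45.

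**Figure D3:**
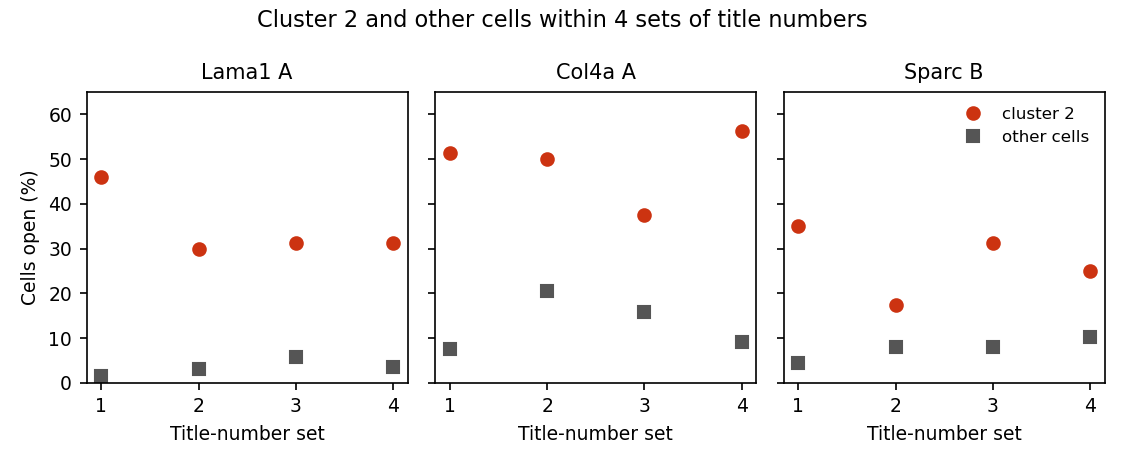
Percent of cells open at Lama1 A, Col4a A and Sparc B in cluster 2 (circles) and in all other clustered cells (squares), in each of 4 consecutive sets of title numbers. The circle lies above the square in all 12 comparisons, from 17.5% against 7.94% at Sparc B to 56.2% against 9.20% at Col4a A.

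Co-opening of the 3 windows in the same cell was close to what depth predicts. Lama1 and Col4a1-Col4a2 were each open at some region in 92 cells, where 84.9 were expected, a ratio of 1.08 (0.892 to 1.29). Lama1 and Sparc were open together in 46 cells with 47.3 expected, a ratio of 0.973 (0.722 to 1.27). Col4a1-Col4a2 and Sparc were open together in 33 cells with 35.8 expected, a ratio of 0.923 (0.643 to 1.27). All 3 windows were open in 24 cells, 5.78% (3.74% to 8.48%), with 24.1 expected, a ratio of 0.995 (0.644 to 1.46). None of these intervals excludes 1.

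These ratios moved when cells were thinned, which was done in 1 random draw, and changed little in cells at or above the median depth. In those cells the ratio was 1.16 for Lama1 with Col4a1-Col4a2 and 0.956 for Lama1 with Sparc. It was 0.893 for Col4a1-Col4a2 with Sparc and 1.04 for all 3. When 1500 open regions were drawn at random from every cell (33 cells had fewer and were dropped), Lama1 and Col4a1-Col4a2 were open together in 21 cells with 11.9 expected, a ratio of 1.77 (1.10 to 2.66). The ratio was 1.29 (0.559 to 2.52) for Lama1 with Sparc, 1.72 (0.746 to 3.36) for Col4a1-Col4a2 with Sparc and 3.17 (0.654 to 9.18) for all 3, which rests on 3 cells. In the deepest cells, those with at least 5713 open regions, 4 of the 5 regions called higher in cluster 2 were open less often than the depth fit expects, with quotients of observed to expected of 0.695 at Lama1 A, 0.596 at Col4a C, 0.534 at Sparc B and 0.894 at Col4a A. The quotient was also low at Lama1 C (0.848) and Sparc A (0.801), which were not called higher. It was 1.13 at Col4a B and 1.15 at Lama1 B, and 0.894 over all 8 regions together. The part of this departure in the ratios without thinning was not tested.

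Among single regions, Lama1 A and Col4a A co-opened most. Both were called higher in cluster 2, so their joint opening is not separate from that result. They were open together in 26 cells with 15.2 expected, a ratio of 1.71 (1.13 to 2.46), the only interval of the 21 pairs between windows that excludes 1. Lama1 A was open with Sparc B in 14 cells with 8.82 expected (1.59, 0.874 to 2.63). Col4a A was open with Sparc B in 19 cells with 16.1 expected (1.18, 0.715 to 1.82). The median ratio of the 21 pairs was 1.01, and 0 of them reached 2, where 0.49% of all pairs on different chromosomes did. Summed over the 21 pairs, the ratio was 1.07 in all cells. Inside clusters 1, 2 and 3, with expected numbers scaled to each cluster's own shares, it was 1.01, 0.876 and 1.07. After thinning, the 21 pairs together had 45 joint openings with 24.9 expected, their median ratio was 1.54, and 7 of them reached 2. Some of these 7 rest on very few cells, such as Lama1 C with Sparc A, with 1 cell and 0.497 expected (2.01). The share of all pairs that reach 2 after thinning was not computed. Lama1 A with Col4a A then had 7 cells with 1.65 expected, a ratio of 4.25 (1.72 to 8.67), again the only interval of the 21 that lies above 1.

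**Figure D4:**
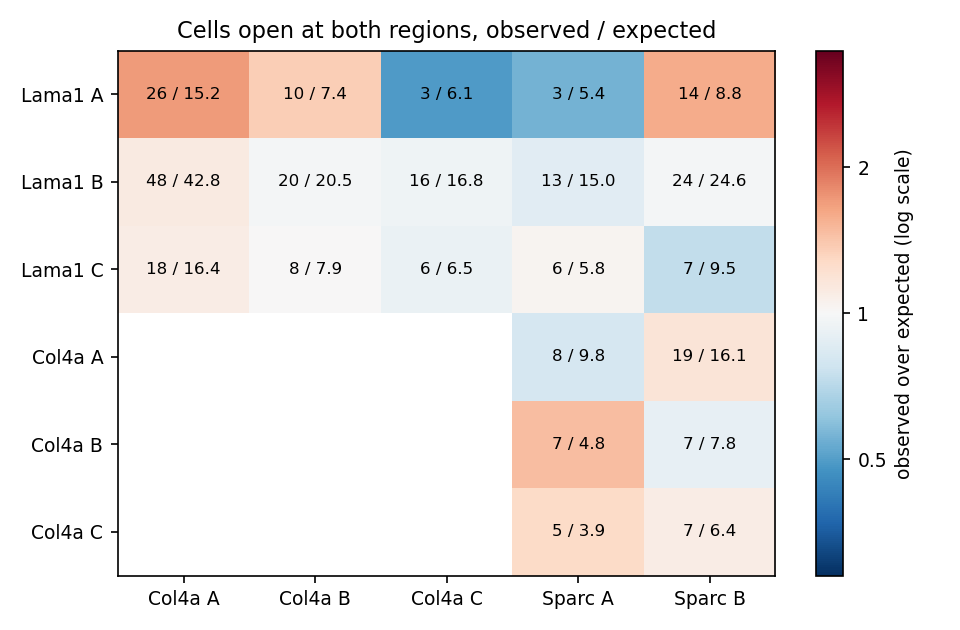
Number of cells open at both regions of a pair, observed before and expected from depth after the slash, for the 21 pairs that lie in different windows; colour gives their ratio on a log scale. Lama1 A with Col4a A stands at 26 against 15.2, while Lama1 B and C stay near their expected numbers with most regions.

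The correlation of depth-corrected values over cells, which the labels put in 1 group, is given as a description and was highest for the same pair. It was above 0 in 16 of the 21 pairs between windows, although their median co-opening ratio was 1.01. Its mean was 0.0478 over the 21 pairs between windows (SD 0.0675 over pairs) and -0.000227 over all pairs of regions on different chromosomes. Lama1 A with Col4a A reached 0.250, Lama1 A with Sparc B 0.151 and Col4a A with Sparc B 0.116. The 99th percentile of all pairs on different chromosomes was 0.14, and Lama1 A with Col4a A lay above 99.96% of those pairs. Within windows the mean of the 7 pairs was 0.0599, and Col4a A with Col4a C had the highest value, 0.126. Lama1 A and B, neighbours in 1 window, had 0.0635.

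Other basement membrane genes were read in windows set from general knowledge of mm9. Each of the 22 genes used, members included, lay on the chromosome that the GRCm38 gene table gives, but the windows themselves could not be checked against an annotation of this build. No region fell in the window of Nid1 (nidogen). The windows of Lamb1 and Lamc1, the other chains of the embryonic laminin, held 1 region each, and that of Hspg2 (perlecan) held 5. In cluster 2, 3 of these 7 regions were called higher and 0 lower, with a median ratio of 1.09, where 10.8% of the 18664 clustered regions were called higher and 23.4% lower. They took part in the clustering, so their ratios are a description. Lamb1 was open in 26.6% of cluster 2 and 4.92% of other cells, a ratio of 5.62. Lamc1, open in 46.3% of all cells, had 48.6% and 45.6%, a ratio of 1.06. Hspg2 B had 31.2% and 8.52% (3.78) and Hspg2 D 17.4% and 4.59% (3.96). Of the laminin regions, Lama1 A and that of Lamb1 thus had most of their open cells in cluster 2. Lama1 B, Lama1 C and the region of Lamc1 were open in all clusters and were not called different in cluster 2.

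Lama1 A also opened with Lamb1 in the same cells, in 18 cells with 7.36 expected, a ratio of 2.44 (1.46 to 3.81). With Hspg2 B it was open in 18 cells with 9.94 expected, a ratio of 1.81 (1.08 to 2.83). These were the highest of the 7 other basement membrane regions. The ratio of Lama1 A was 0.792 with Lamc1 and 1.07, 0.741, 1.26 and 0.804 with Hspg2 A, C, D and E. Each of these intervals includes 1, and the ratio summed over all 7 regions was 1.16. For whole windows, the 9 pairs of a member window and another basement membrane window had ratios of 0.892 to 1.24, and each interval included 1.

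Markers of the cell types that such a culture could hold were read in the same way. The endoderm list (Gata4, Gata6, Sox17, Foxa2, Pdgfra, Dab2 and the keratin pair Krt8 and Krt18) held 21 regions, of which 13 were called higher and 1 lower in cluster 2, with a median ratio of 2.30, against the same 10.8% higher and 23.4% lower of the clustered regions. The highest was Dab2 B, open in 29.4% of cluster 2 and 2.30% of other cells, a ratio of 13.3. Dab2 encodes an endocytic adaptor expressed in extraembryonic endoderm. The region called lower was Gata6 B (0.343), while Gata6 A had 2.16. Of the 12 regions of the neural list (Sox2, Pax6, Pax3), 0 were higher and 6 lower in cluster 2, with a median of 0.554, read against those same shares of 10.8% and 23.4%. The single region at Esrrb, a pluripotency gene, had a ratio of 0.354, and that at Kdr, of early mesoderm and endothelium, 1.83. No region fell at Nanog. All these regions took part in the clustering, and clusters are not named from them.

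The members' own co-opening with these lists did not use the clusters. It is still not separate from them, since 5 of the 8 members and 13 of the 21 endoderm regions were called higher in cluster 2. Summed over the 21 endoderm regions, the ratio of observed to expected joint openings was 1.41 for Lama1 A, 0.984 for Lama1 B, 0.985 for Lama1 C, 1.19 for Col4a A, 1.14 for Col4a B, 0.982 for Col4a C, 0.841 for Sparc A and 1.04 for Sparc B. With the 12 neural regions, in the same order of members, the ratios were 0.603, 1.03, 1.06, 0.895, 1.03, 0.583, 1.14 and 0.732. Lama1 A had the highest ratio with the endoderm list, and Lama1 A and Col4a C had the lowest with the neural list. Sparc A had a lower ratio with endoderm than with neural regions, as did Lama1 B and Lama1 C by a smaller margin. No interval was computed for these summed ratios. For Lama1 A, 7 of the 21 endoderm intervals lay above 1 and 0 below, and the lowest ratio was 0.470, with Gata6 B. Lama1 A was open together with Dab2 B in 18 cells with 6.55 expected (2.75, 1.64 to 4.29). With Gata4 D it was open in 13 with 5.39 expected (2.41, 1.29 to 4.07). With Krt8-Krt18 F it was open in 17 with 8.34 expected (2.04, 1.20 to 3.22). Col4a A was open with Krt8-Krt18 F in 26 cells with 15.2 expected (1.71, 1.13 to 2.46). For Col4a A this was the only interval of the 21 above 1, and the lowest ratio was 0.558, with Gata4 A. With Esrrb, Col4a A was open in 14 cells where 24.5 were expected (0.571, 0.314 to 0.946) and Sparc B in 6 where 14.2 were (0.423, 0.156 to 0.914). The ratio with Esrrb was 1.44 for Col4a B (17 cells with 11.8 expected, 0.844 to 2.27) and 0.985 for Lama1 B, and 0.462 to 0.831 for the other 4 members, each with an interval that includes 1. For whole windows, the 45 pairs of a member window and a list window had ratios of 0.431 to 1.29, and 2 intervals did not include 1. These were Sparc with Esrrb, 9 cells with 20.9 expected (0.431, 0.198 to 0.810), and Col4a1-Col4a2 with Foxa2, 69 cells with 53.5 expected (1.29, 1.02 to 1.59). At Lama1 B, 0 of the 21 endoderm and 0 of the 12 neural regions had an interval of the ratio that excluded 1.

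**Figure D5:**
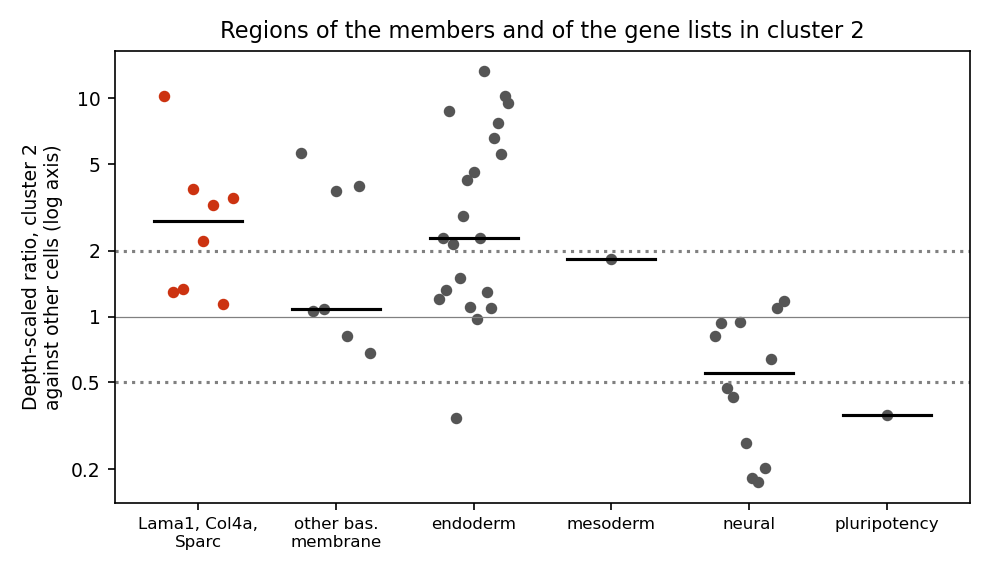
Depth-scaled ratio of the share of open cells in cluster 2 against other cells (log axis), for each region of the members and of the gene lists; black lines are medians and dotted lines mark 2 and 0.5. The members (median 2.74) and endoderm regions (2.30) lie mostly above 1, and neural regions (0.554) mostly below; list regions took part in the clustering and member regions did not.

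The regions elsewhere whose pattern over cells was most like the 3 windows are given with their shares in cluster 2, as a description, since they took part in the clustering. Likeness was the correlation, over all cells, of a region's depth-corrected value with the mean of the 3 standardised window scores, among the 18664 autosomal regions outside chromosomes 8, 11 and 17. The first 5 were chr10:93193740-93194250 (0.378), chr10:61991151-61991703 (0.368), chr10:51408279-51409342 (0.357), chr1:31213131-31213918 (0.356) and chr2:70761049-70761624 (0.356). The median over all these regions was -0.0112 and the 99th percentile 0.251. The first was open in 33.9% of cluster 2 and 1.97% of other cells, and the last in 20.2% and 3.28%. These 5 were picked as the highest of many, so their values lean high.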

How the data were processed

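Accessibility was read from 1 table that the authors deposited, with a whole-number signal for each of 23180 regions in each of 415 cells. Per the submitters' processing notes, MACS2 and build mm9 were used; neither the role of MACS2 nor aligner, duplicate handling or region selection has a stated source among those used here. Of the signal values above 0 deposited by the authors, 37.6% equal 148 and 51.1% are multiples of 74, the pattern of bases summed over paired reads of 74 bases, so signal was divided by 148 to give fragments (791 to 25069 per cell, median 4529). Coordinates are as the table gives them. No 2 cells held identical values.

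The probability of being open was fitted as 1 − exp(−region rate × cell rate) over the whole table. Expected numbers and depth-corrected values come from it. Cells were clustered with term frequency and inverse document frequency weights (scaled by 10000, log-transformed), components 2 to 10 of a singular value decomposition and k-means with 3 clusters and 50 starts, leaving out chromosomes 8, 11, 17 and X and 1 cell under 1000 fragments. Python 3.11.15, NumPy 2.4.6, SciPy 1.17.1 and scikit-learn 1.9.0 were used. The fit was tested on cells simulated from its own probabilities, so that test cannot show how well it describes these data. Named are all 8 member regions, the list regions given as examples and the 5 regions of highest likeness; the list examples were chosen after their values were seen. Members, lists and rules were chosen with earlier results of these data known. Alternatives were the definition of open, deeper cells, thinning, title-number sets, the region left out of each window, and the clustering.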

Additional observations from a re-analysis of the deposited data

How the results depend on the processing

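In cluster 2, 5 of 8 member regions were called higher. This count stayed at 5 in 9 of 11 alternatives and was 4 without the second set of title numbers. It fell to 3 in cells at or above the median depth, where Col4a B and Col4a C had ratios of 1.64 and 1.83. Of all regions on the 3 chromosomes of the windows, 9.46% were called higher in the main clustering. This share was 14.4% at more than 1 fragment, 12.3% after thinning and 9.29% to 10.1% in the other alternatives. With more than 1 fragment or after thinning, an unchanged 5 of 8 is therefore not an unchanged contrast. Lama1 A, Col4a A and Sparc B stayed at a ratio of 2 or more in all 11, from 6.79, 2.27 and 2.45 upwards; at more than 1 fragment no other cell was open at Lama1 A, so its ratio there is a lower bound set with a floor of 3 cells. Reclustering without a title-number set and the comparison of observed with expected openings in 4 ranges of depth were chosen after seeing the data.

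Requiring more than 1 fragment lowered the median share of open cells from 12.4% to 1.93%, and thinning lowered it to 4.71%. For co-opening, more than 1 fragment gave 0.876 for Lama1 with Col4a1-Col4a2 and 0 cells for all 3 windows. Thinning gave 1.77 for Lama1 with Col4a1-Col4a2, 1.29 for Lama1 with Sparc, 1.72 for Col4a1-Col4a2 with Sparc and 3.17 for all 3. Without the most open region of each window, Col4a1-Col4a2 with Sparc had 1.39 and all 3 windows 1.64. Of these, only the thinned value of Lama1 with Col4a1-Col4a2 has an interval that excludes 1 (1.10 to 2.66). The cause of these shifts was not tested. Leaving out title-number sets kept each of these 4 ratios within its own interval. No paired analysis was possible because there is 1 group of cells.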
